A study of Mus musculus with 20 samples.

Results

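The vacuolar H+-ATPase (V-ATPase) is the proton pump that acidifies lysosomes and endosomes, and 9 genes for its membrane sector V0 and its accessory subunits were followed in mouse liver. They were chosen by name as the V0 and accessory subunit genes Atp6v0a1, Atp6v0a2, Atp6v0b, Atp6v0c, Atp6v0d1, Atp6v0d2, Atp6v0e, Atp6ap1 and Atp6ap2, of 32400 genes in the deposited table. Messenger RNA was sequenced in 20 libraries of bulk liver from C57BL/6NTac mice. Chow controls (n = 5) ate normal chow and received nothing. HFHF controls (n = 7) ate a diet high in fat and fructose (HFHF) and were given the vehicle PBS. The HFHF Flcn gRNA group (n = 8) had the same diet and received a guide RNA against Flcn carried by AAV8, an adeno-associated virus that enters hepatocytes well. The HFHF controls were given a vehicle and not a virus with another guide, so the virus and the guide cannot be told apart. Chow controls received no vehicle, so in the differences called diet here the diet and the vehicle cannot be told apart either. Nothing used here gives the source of Cas9, the ages or the feeding times. Whether every library came from its own animal is not labelled, so a p-value measures only the spread between libraries, which may be technical.

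The V-ATPase has a cytosolic sector, V1, which hydrolyses ATP, and a membrane sector, V0, which moves protons. In V0 a rotating ring of proteolipids (the c and c'' subunits) carries protons past the a subunit, the d subunit couples the ring to the stalk of V1, and the small e subunit sits beside the a subunit. The accessory proteins Atp6ap1 and Atp6ap2 are needed to assemble the pump and stay with V0. Folliculin, the product of Flcn, acts on the Rag GTPases at the lysosomal surface and thereby restrains the MiT/TFE transcription factors (TFEB, TFE3, MITF and TFEC), which bind CLEAR and E-box motifs near lysosomal and V-ATPase genes.

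Library totals lay between 13974379 and 19586576 expected counts, both extremes being gRNA libraries. Levels are CPM, counts relative to library size after scaling with TMM factors, and differences are log2 fold changes with their standard error (SE) from edgeR's quasi-likelihood fit of 13667 genes. Hepatocyte markers (Alb, Apob, Hnf4a and 5 others) summed to 71376 to 92151 CPM in chow libraries, 42841 to 62722 in the HFHF controls and 48020 to 78604 with gRNA. The sum is mostly Alb, which averaged 59767 CPM in chow where the median sum was 83637 CPM. Of the 8 markers 7 were lower on the diet, where 28.9% of all tested genes were lower. With gRNA against HFHF control 3 were higher and 0 lower, where 19.6% and 19.0% of all tested genes were. Flcn itself ranged over 17.3 to 32.4 CPM in chow, 17.7 to 26.4 in HFHF control and 14.1 to 22.0 in gRNA libraries, and its gRNA difference did not pass (log2 fold change -0.22, SE 0.12, adjusted p = 0.14). Against chow its gRNA difference was -0.32, with an interval of -0.59 to -0.05, at the threshold without passing (adjusted p = 0.05). The libraries of all 3 groups overlapped for Flcn, so its mRNA level gives no firm check of the labels. The gRNA library numbered replicate 8 differs from the rest in a field of its title whose meaning is not given. It was the highest or lowest of its group for several V0 genes, as given below.

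Subunit genes of V0 were mostly higher on the HFHF diet, and part of them were higher again with the Flcn gRNA. For HFHF control against chow, 7 of the 9 genes rose, 1 fell and 1 did not pass, beside 57.0% of all tested genes past an adjusted p of 0.05 (28.1% higher and 28.9% lower). Their median was 0.36 on the log2 scale, and that of all genes was -0.01. With gRNA against HFHF control, 5 rose, 0 fell and 4 did not pass, where 38.6% of all genes passed (19.6% higher, 19.0% lower), with a median of 0.22 against 0.01. By contrast with chow, 8 rose in the gRNA libraries and 1 did not pass, where 42.6% of all genes passed (20.9% higher, 21.6% lower), with a median of 0.57 against 0.00. The libraries did not overlap for 4 higher and 1 lower of the 9 genes on the diet (18.8% and 18.1% of all genes). With gRNA against HFHF control this held for 1 higher and 0 lower genes (5.07% and 6.02% of all genes), and with gRNA against chow for 6 higher and 0 lower (9.04% and 8.96%). The 3 comparisons share libraries pairwise and are not independent of each other. In bulk tissue, more RNA per cell and more cells of a type cannot be told apart.

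These counts depend on how libraries are scaled. When counts were divided by library size alone, the median of all genes was -0.17 for gRNA against HFHF control and 0.27 for HFHF control against chow. The counts for gRNA against HFHF control then were 0 higher and 1 lower, the lower gene being Atp6v0e at -0.25 (edgeR adjusted p = 0.027), and 16.7% of all calls were higher, in place of 50.7%. On the diet Atp6v0a1 was then at -0.09 and no longer passed (adjusted p = 0.419), and Atp6ap1 passed at 0.41 (adjusted p = 6e-05). Relative to the shifted median for gRNA against HFHF control, Atp6v0a1, Atp6v0b, Atp6v0c, Atp6v0d1, Atp6v0d2 and Atp6ap2 were still 0.20 to 0.28 above it. Upper-quartile scaling gave 37.8% of calls higher for gRNA against HFHF control and 60.7% higher for the diet, where TMM gave 49.4%.

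**Figure D1:**
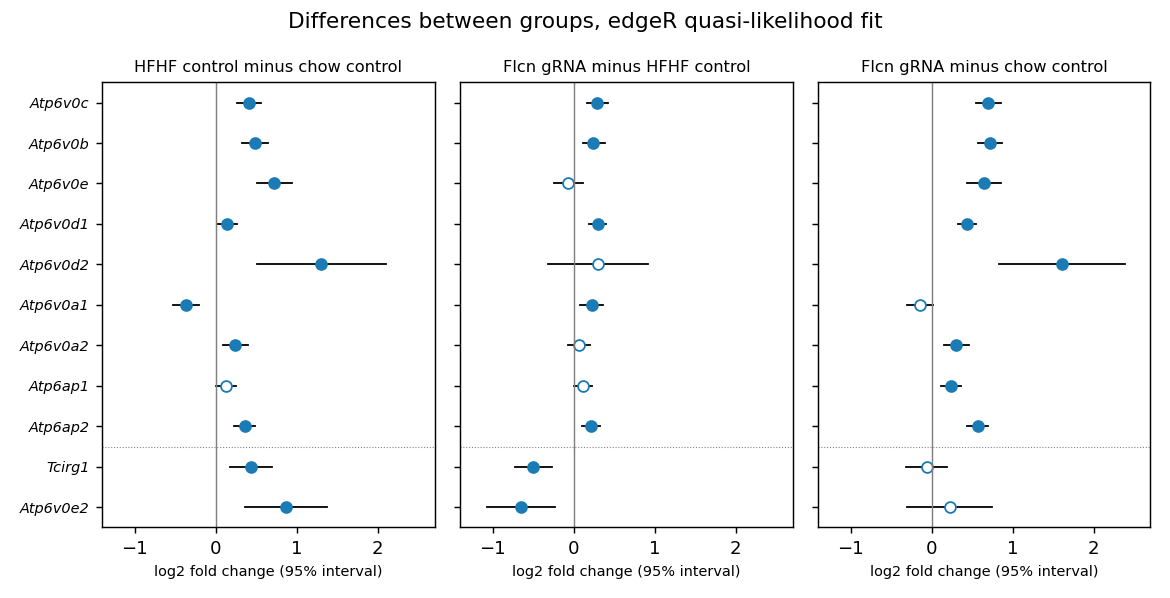
Log2 fold changes of the 9 V0 and accessory genes, and below the dotted line of the paralogs Tcirg1 and Atp6v0e2, in 3 comparisons. Points are edgeR estimates, lines are 95% intervals, and filled points passed an adjusted p of 0.05. Atp6v0a1 is left of 0 on the diet, and Atp6v0d2 has the widest intervals.

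The genes lie on 6 chromosomes of GRCm38, with coordinates from GENCODE M21. Atp6v0b spans chr4:117884326-117887333, Atp6v0d2 chr4:19876841-19922605, Atp6v0a2 chr5:124628576-124724455 and Atp6v0d1 chr8:105524465-105566047. Atp6v0a1 spans chr11:101009452-101063719, Atp6v0c chr17:24163866-24169702 and Atp6v0e chr17:26663231-26699647. On the X chromosome, Atp6ap2 spans chrX:12587801-12617049 and Atp6ap1 chrX:74297097-74304721. Antisense genes overlap exons of Atp6v0b (Gm12841) and Atp6v0a2 (4930404A12Rik), each with 1.0 count over all 20 libraries. Counts of Atp6v0e were whole numbers in 6 of 20 libraries. Among genes outside the 9, those of Tcirg1, an a subunit, were whole in 3 and those of Atp6v0e2, a second e subunit, in 17. In expected counts, fractions can mark reads divided between genes, so the levels of Atp6v0e and Tcirg1 are less certain. The other 8 of the 9 genes had whole counts in 20 of 20 libraries.

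The stretches before the transcription start are shown for Atp6v0b, Atp6v0d1, Atp6v0c and Atp6v0e, because each holds one of the motifs searched. RefSeq windows of 250 bases before to 50 after the start (GRCm38.p6) were given for 7 of the 9 genes. Both strands were searched for TCACGTGA, for its core CACGTG (the E-box), for the CLEAR motif (TCACGTGA with G before and C after it) and for TCATGTGA (the M-box). The first 3 overlap each other. Capitals mark the match, each sequence reads 5′ to 3′ on the gene's strand, and each ends at the start site or at the end of the match.
Atp6v0b: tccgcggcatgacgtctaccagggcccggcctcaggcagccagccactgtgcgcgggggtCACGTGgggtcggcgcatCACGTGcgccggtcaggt
Atp6v0d1: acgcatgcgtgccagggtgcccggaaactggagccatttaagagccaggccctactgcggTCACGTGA
Atp6v0c: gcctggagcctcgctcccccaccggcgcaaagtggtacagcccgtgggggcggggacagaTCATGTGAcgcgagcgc
Atp6v0e: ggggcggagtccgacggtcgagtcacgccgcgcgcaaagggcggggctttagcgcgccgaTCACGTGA
The Atp6v0b stretch (chr4:117887330-117887425, minus strand) holds CACGTG at 36 to 31 and again at 18 to 13 bases before the start. Atp6v0d1 (chr8:105566061-105566128, minus strand) holds TCACGTGA across its start, from 4 bases before to the base numbered 4. Atp6v0c (chr17:24169451-24169527, minus strand) holds TCATGTGA at 17 to 10 bases before the start, in 1 of its 3 RefSeq windows. In Atp6v0e (chr17:26676338-26676405, plus strand) TCACGTGA lies at bases 3 to 10 from the start. This RefSeq start lies inside the GENCODE span of the gene, which begins at chr17:26663231. No window at that upstream position was searched. Of 32851 windows in the table, 7.15% hold CACGTG, 0.974% TCACGTGA, 0.986% TCATGTGA and 0.326% the CLEAR motif. No window of the 9 genes holds the CLEAR motif. Windows of Atp6v0a1, Atp6ap1 and Atp6ap2 held no match, which says only that these letters are not in those windows. A match is a description of sequence and not a measured binding site.

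Per kilobase of exon, the d and c subunits led in every group and Atp6v0d2 was last. In chow the order was Atp6v0d1 at 25.5 ± 1.30 CPM per kb (SD, n = 5), Atp6v0c at 22.4 ± 0.715, Atp6ap1 at 17.6 ± 1.87, Atp6v0b at 12.4 ± 0.948 and Atp6ap2 at 10.6 ± 0.361. Below them came Atp6v0a1 at 6.40 ± 0.347, Atp6v0e at 4.81 ± 0.419, Atp6v0a2 at 4.40 ± 0.508 and Atp6v0d2 at 1.08 ± 0.468 CPM per kb. Only Atp6v0e and Atp6v0a2 had overlapping libraries among neighbours in that order. In HFHF control Atp6v0c (29.7 ± 0.880 CPM per kb, n = 7) and Atp6v0d1 (28.1 ± 0.641) overlapped, as did Atp6ap1 with Atp6v0b, Atp6v0a2 with Atp6v0a1, and Atp6v0a1 with Atp6v0d2. Atp6v0e had moved above both a subunits there, at 7.94 ± 0.814 CPM per kb against 5.21 ± 0.440 for Atp6v0a2 and 4.96 ± 0.463 for Atp6v0a1. The gRNA group had the same 6 genes on top in the same order, from Atp6v0c at 36.4 ± 4.47 (n = 8) to Atp6v0e at 7.58 ± 1.22 CPM per kb. This order depends on the length used: with the median length of coding transcripts, chosen after the data were seen, Atp6v0c led in every group and Atp6v0e ranked 5, 2 and 4 in chow, HFHF control and gRNA.

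The mRNAs of the 2 proteolipid genes were higher on the diet and, with TMM scaling, higher again with the gRNA. At library size alone the gRNA step against HFHF control did not pass for Atp6v0c (0.11, edgeR adjusted p = 0.21) or Atp6v0b (0.05, adjusted p = 0.56). Atp6v0c, which encodes the main c subunit of the ring, was at 76.8, 71.8, 77.3, 75.9 and 77.8 CPM in the chow libraries. It ranged from 96.3 through a median of 101 to 105 CPM in HFHF control and from 105 through 118 to 145 CPM in gRNA libraries. All HFHF control libraries lay above all chow libraries, and 7 of 8 gRNA libraries lay above every HFHF control library. Atp6v0c rose by 0.41 on the diet (SE 0.07, edgeR adjusted p = 6e-05) and by a further 0.29 with gRNA (SE 0.06, adjusted p = 0.0009), which made it 1.62-fold the chow level (log2 fold change 0.70, SE 0.07, adjusted p = 1.32e-07).

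Atp6v0b, which encodes the c'' proteolipid, followed the same order. Its chow libraries were at 23.4, 26.9, 23.5, 26.1 and 27.7 CPM. The HFHF control libraries ran from 33.5 through 35.7 to 37.3 CPM and the gRNA libraries from 36.6 through 41.4 to 51.8 CPM. Diet separated the libraries without overlap, while 6 of 8 gRNA libraries were above every HFHF control. Atp6v0b rose by 0.48 on the diet (SE 0.08, edgeR adjusted p = 1.2e-05), by 0.24 with gRNA against HFHF control (SE 0.06, adjusted p = 0.00513) and by 0.72 with gRNA against chow (SE 0.07, adjusted p = 1.29e-07).

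Atp6v0e, the small e subunit, differed between the diets and not detectably between the guide and its control. Chow libraries were at 16.2, 19.8, 16.4, 18.9 and 17.9 CPM. HFHF control ran from 25.5 through 29.2 to 34.8 CPM and gRNA from 23.1 through 28.2 to 36.6 CPM, so these groups overlapped widely and both lay wholly above chow. The rise on the diet was 0.72 (SE 0.10, edgeR adjusted p = 3.81e-06) and that of gRNA against chow 0.65 (SE 0.10, adjusted p = 2.39e-05). For gRNA against HFHF control the value was -0.07 with a 95% interval of -0.25 to 0.11 (adjusted p = 0.576).

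**Figure D2:**
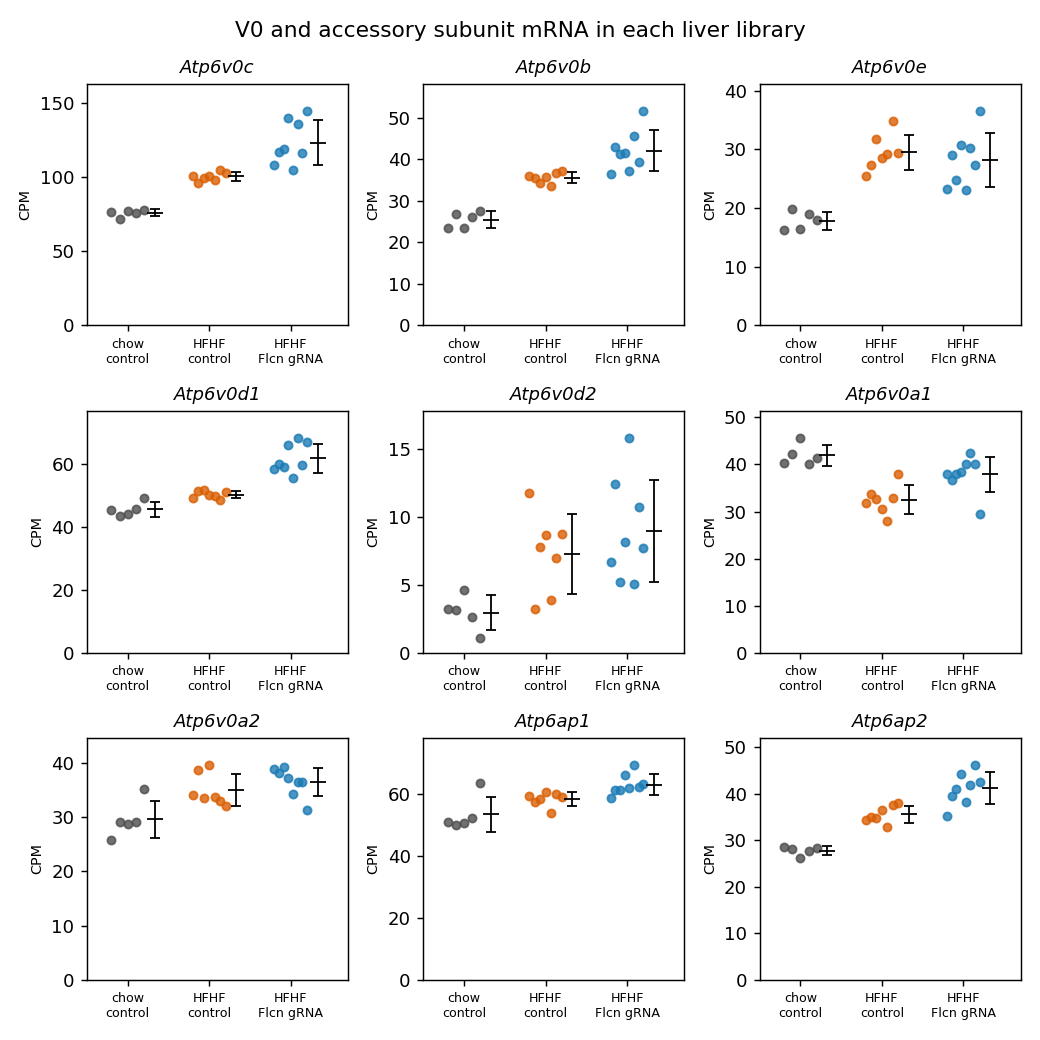
CPM of the 9 genes in each library by group (5 chow control, 7 HFHF control, 8 HFHF Flcn gRNA). Each point is a library, and the bar beside each group is its mean ± SD. Atp6v0a1 is lowest in HFHF control, and 1 gRNA library, at 29.5 CPM, lies below the rest of its group.

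Replicate 8 of the gRNA group was the highest of its group for Atp6v0c (145 CPM), Atp6v0b (51.8 CPM) and Atp6v0e (36.6 CPM) and the lowest for Atp6v0a1 (29.5 CPM). Without it all 5 calls for gRNA against HFHF control remained: 0.25 for Atp6v0c (edgeR adjusted p = 0.0021), 0.18 for Atp6v0b (adjusted p = 0.0112), 0.27 for Atp6v0d1 (adjusted p = 0.000166), 0.19 for Atp6ap2 (adjusted p = 0.00908) and 0.26 for Atp6v0a1 (adjusted p = 0.00153). For Atp6v0e the value without it was -0.14 (adjusted p = 0.174).

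Of the paralogous d subunits, which join the ring to the V1 stalk, the ubiquitous Atp6v0d1 was the gene whose libraries separated the guide from its control. Its levels were 45.5, 43.4, 44.2, 45.9 and 49.4 CPM in chow. They ran from 48.7 through 50.2 to 51.8 CPM in HFHF control and from 55.5 through 59.9 to 68.5 CPM in gRNA libraries. Each gRNA library lay above each HFHF control library. Atp6v0d1 rose by 0.30 with gRNA against HFHF control (SE 0.05, edgeR adjusted p = 6.39e-05), a level 1.23-fold that of HFHF control, and by 0.44 against chow (SE 0.06, adjusted p = 2.22e-06). On the diet it rose by 0.14 (SE 0.06, adjusted p = 0.0375). That diet call was lost without HFHF control replicate 2 (adjusted p = 0.0572), 3 (adjusted p = 0.06) or 7 (adjusted p = 0.0548), at 0.14 each time. At library size alone the gRNA step of Atp6v0d1 against HFHF control was 0.11 and did not pass (edgeR adjusted p = 0.0971).

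Atp6v0d2, the form known from osteoclasts, macrophages and some epithelia, was the lowest and most variable of the 9 genes. Its chow libraries were at 3.23, 3.12, 4.61, 2.60 and 1.09 CPM. HFHF control spread from 3.17 through 7.76 to 11.7 CPM and gRNA from 5.01 through 7.91 to 15.8 CPM. The gRNA libraries all lay above chow, and 5 of 7 HFHF control libraries did. Atp6v0d2 rose by 1.30 on the diet (SE 0.38, edgeR adjusted p = 0.00629) and by 1.61 with gRNA against chow (SE 0.37, adjusted p = 0.00188), 3.04-fold. The gRNA difference from HFHF control was 0.30 with an interval of -0.32 to 0.92 (adjusted p = 0.454), and 2 of 8 gRNA libraries lay above every HFHF control.

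The a subunits hold the proton path and direct the pump to particular membranes, and Atp6v0a1 and Atp6v0a2 moved in opposite directions on the diet. Atp6v0a1 was at 40.3, 42.3, 45.7, 40.1 and 41.4 CPM in chow. It ran from 27.9 through 32.7 to 37.9 CPM in HFHF control and from 29.5 through 38.2 to 42.4 CPM in gRNA libraries. Every HFHF control library was below every chow library, and 6 of 8 gRNA libraries were above every HFHF control. Atp6v0a1 fell by 0.37 on the diet (SE 0.08, edgeR adjusted p = 0.000298), to 0.775 of the chow level. It rose by 0.22 with gRNA against HFHF control (SE 0.07, adjusted p = 0.0129), though with upper-quartile scaling this was 0.16 and did not pass (adjusted p = 0.0675). At library size alone that gRNA step was 0.04 and did not pass either (adjusted p = 0.724). Against chow the gRNA value was -0.15, with an interval of -0.30 to 0.01 (adjusted p = 0.119).

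Atp6v0a2, an a subunit known from the Golgi and endosomes, was at 25.9, 29.1, 28.7, 29.2 and 35.2 CPM in chow. It ran from 32.1 through 33.7 to 39.7 CPM in HFHF control and from 31.4 through 36.9 to 39.3 CPM in gRNA libraries. The highest chow library, replicate 5, overlapped both other groups. Atp6v0a2 rose by 0.24 on the diet (SE 0.08, edgeR adjusted p = 0.00864) and by 0.30 with gRNA against chow (SE 0.07, adjusted p = 0.00209). The gRNA value against HFHF control was 0.06, with an interval of -0.07 to 0.20 (adjusted p = 0.491), and -0.12 without scaling beyond library size.

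Among the accessory subunits, Atp6ap2, also known as the prorenin receptor, was higher in each step with TMM scaling. At library size alone its gRNA step against HFHF control was 0.03 and did not pass (edgeR adjusted p = 0.788). Chow libraries were at 28.6, 28.1, 26.2, 27.6 and 28.4 CPM. HFHF control ran from 32.9 through 35.0 to 38.1 CPM and gRNA from 35.3 through 41.5 to 46.2 CPM, with 7 of 8 gRNA libraries above every HFHF control and no chow library near either group. Atp6ap2 rose by 0.36 on the diet (SE 0.06, edgeR adjusted p = 4.34e-05), by 0.21 with gRNA against HFHF control (SE 0.05, adjusted p = 0.00365) and by 0.57 with gRNA against chow (SE 0.06, adjusted p = 2.57e-07).

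Atp6ap1, a glycoprotein also called Ac45, had the smallest diet value of the 9 genes, 0.13. Its chow libraries were at 50.9, 49.9, 50.4, 52.0 and 63.3 CPM, where replicate 5 stands above the rest. HFHF control ran from 53.7 through 58.8 to 60.5 CPM and gRNA from 58.7 through 61.9 to 69.3 CPM. The gRNA level rose against chow by 0.24 (SE 0.06, edgeR adjusted p = 0.00242). The diet value of 0.13 (SE 0.06, adjusted p = 0.0747) became 0.23 without chow replicate 5 and then passed (adjusted p = 0.00119). It also passed at 0.18 without HFHF control replicate 5 (adjusted p = 0.0151), at 0.16 without gRNA replicate 1, 2, 3, 5 or 8 (adjusted p = 0.0244 to 0.0299) at 0.14 with DESeq2 (adjusted p = 0.0376) and at 0.22 with upper-quartile scaling (adjusted p = 0.00282). The gRNA value against HFHF control was 0.11 (SE 0.05, adjusted p = 0.102) in the fit, and -0.07 without scaling beyond library size. An exact two-sided permutation test of the libraries' log2 CPM gave 0.11 with p = 0.00264 (adjusted over 27 such tests, p = 0.0042), and 7 of 8 gRNA libraries were above every HFHF control. For the other 26 pairs of gene and comparison, the exact test and the fit made the same call.

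Relatives of the members differed from them in the guide comparison. Tcirg1, the a3 subunit known from lysosomes and the osteoclast membrane, was at 16.3, 17.1, 14.1, 16.8 and 22.8 CPM in chow. It ran from 18.0 through 22.4 to 29.6 CPM in HFHF control and from 13.5 through 16.9 to 19.1 CPM in gRNA libraries. Tcirg1 rose by 0.44 on the diet (SE 0.13, edgeR adjusted p = 0.00514) and fell by 0.50 with gRNA against HFHF control (SE 0.11, adjusted p = 0.000952), with 7 of 8 gRNA libraries below every HFHF control. Atp6v0e2, a second e subunit, averaged 0.737 ± 0.160 CPM in chow, 1.35 ± 0.384 in HFHF control and 0.858 ± 0.214 in gRNA libraries (SD, n = 5, 7 and 8). It rose by 0.87 on the diet (SE 0.24, adjusted p = 0.00433) and fell by 0.65 with gRNA (SE 0.20, adjusted p = 0.0141). Atp6v0a4, the kidney a4 subunit, had 24.3 counts in all 20 libraries together and was not tested.

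Ratios of paralogs within each library, as log2 of (CPM + 0.1), were compared with exact two-sided permutation tests, 12 in all. The ratio of Atp6v0a1 to Atp6v0a2 averaged 1.43 ± 0.167 in chow, 0.935 ± 0.133 in HFHF control and 1.04 ± 0.0920 in gRNA libraries (SD, CPM without length correction). It was lower by a log2 difference of -0.62 on the diet (exact p = 0.00253, adjusted p = 0.00758) and of -0.46 in gRNA against chow, where no libraries overlapped (exact p = 0.000777, the smallest these groups allow, adjusted p = 0.00466). Between gRNA and HFHF control it differed by 0.16 (exact p = 0.0917, adjusted p = 0.122). Without HFHF control replicate 7 that difference was 0.21 and passed (adjusted p = 0.0234).

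The ratio of Tcirg1 to Atp6v0a1 was the one that moved up on the diet and down with the guide. It averaged 0.418 ± 0.0869 in chow, 0.728 ± 0.139 in HFHF control and 0.448 ± 0.0876 in gRNA libraries. The diet difference was 0.80 with no overlap (exact p = 0.00126, the smallest possible, adjusted p = 0.00505) and the gRNA difference from HFHF control -0.70 (exact p = 0.000777, adjusted p = 0.00466). Between gRNA and chow it was 0.10 (exact p = 0.531, adjusted p = 0.637).

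For the d subunits, the ratio of Atp6v0d2 to Atp6v0d1 was 0.0652 ± 0.0298 in chow, 0.144 ± 0.0598 in HFHF control and 0.148 ± 0.0711 in gRNA libraries. Its diet difference was 1.15 (exact p = 0.0189, adjusted p = 0.0284), which did not pass without any 1 of 6 libraries (HFHF control replicates 1, 3, 4 and 6 and chow replicates 4 and 5), the lowest value being 0.81 without chow replicate 5 (adjusted p = 0.0864). The difference of gRNA from chow was 1.17 (exact p = 0.00855, adjusted p = 0.0165), and 0.84 without chow replicate 5 (adjusted p = 0.0589). The ratio of Atp6v0e2 to Atp6v0e was lower in gRNA than in HFHF control by -0.51 (exact p = 0.00963, adjusted p = 0.0165) and than in chow by -0.46 (exact p = 0.00466, adjusted p = 0.0112). With a pseudocount of 1 the former was -0.26 and did not pass (adjusted p = 0.0611).

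**Figure D3:**
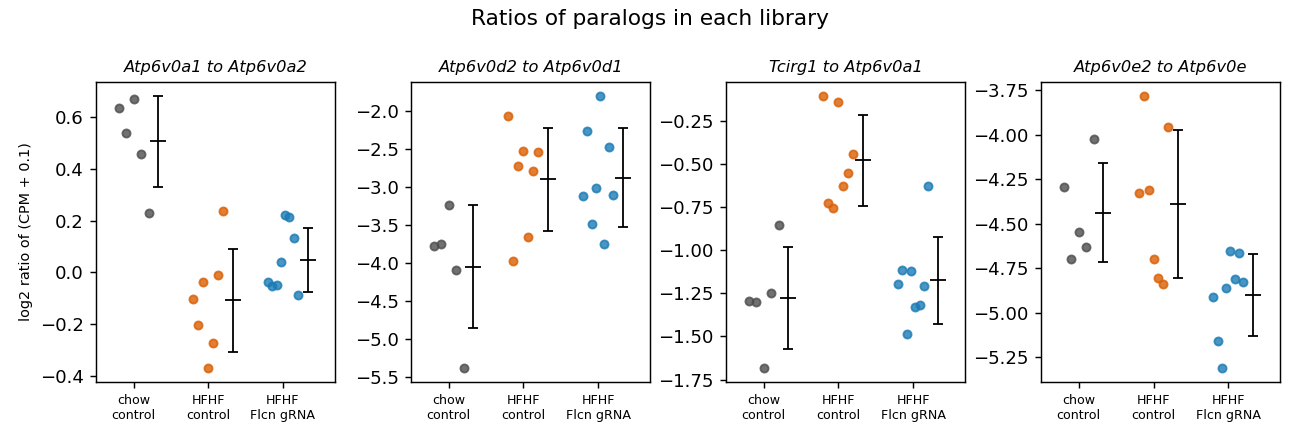
Log2 ratio of CPM + 0.1 for 4 pairs of paralogs in each library (points), with mean ± SD beside each group of 5 chow, 7 HFHF control and 8 gRNA libraries. The chow group has the highest mean for Atp6v0a1 to Atp6v0a2, with 1 HFHF control library reaching the lowest chow library. The HFHF control group has the highest mean for Tcirg1 to Atp6v0a1, with 1 gRNA library inside its range.

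Macrophage markers moved with the diet as well, and Atp6v0d2 and Tcirg1 are known in such cells. Summed over Adgre1, Csf1r, Cd68, Lyz2, C1qa, C1qb, C1qc and Laptm5, general macrophage markers were at 104 to 196 CPM in chow, 275 to 518 in HFHF control and 191 to 375 in gRNA libraries. Of these 8, 7 rose on the diet, and 6 fell with gRNA against HFHF control. Lipid-associated and monocyte-derived macrophage markers (Ccr2, Cx3cr1, Itgam, Itgax, Trem2, Gpnmb, Mmp12, Cd9 and Spp1) summed to 28.9 to 46.9, 170 to 419 and 87.1 to 223 CPM, with 9 of 9 higher on the diet and 8 lower with gRNA. Kupffer cell markers (Clec4f, Vsig4, Cd5l, Timd4, Marco and Folr2) summed to 82.7 to 160, 119 to 318 and 145 to 322 CPM, with 1 higher and 2 lower on the diet and 3 higher with gRNA. All 23 markers were above 0 in each group. Stellate cell markers summed to 195 to 244, 645 to 937 and 251 to 398 CPM in chow, HFHF control and gRNA, with 8 of 8 higher on the diet and 6 lower with gRNA. Lymphocyte markers summed to 12.6 to 24.9, 30.9 to 52.4 and 19.8 to 36.5 CPM, with 5 of 8 higher and 1 lower on the diet, and 3 higher and 5 lower with gRNA. Over all tested genes 28.1% were higher and 28.9% lower on the diet, and 19.6% and 19.0% with gRNA against HFHF control. The part of any of these cells in the V0 values was not tested.

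Within the HFHF control and gRNA groups, Atp6v0d2 was set against these sums in 6 relations that were chosen after its values were seen. In HFHF control (n = 7) it followed the Kupffer sum with Pearson r = 0.85 (exact permutation p = 0.0113, adjusted p = 0.0517) and Spearman rho = 0.93 (exact p = 0.00675, adjusted p = 0.0405). With the general sum r was 0.75 (exact p = 0.0488, adjusted p = 0.0732) and rho 0.75 (exact p = 0.0663, adjusted p = 0.0663). With the monocyte-derived sum r was 0.63 (exact p = 0.117, adjusted p = 0.117) and rho 0.75 (exact p = 0.0663, adjusted p = 0.0663). The Kupffer sum is mostly Cd5l, which averaged 153 CPM in HFHF control where the median sum was 250 CPM. Cd5l rose by 1.64 on the diet (SE 0.31, edgeR adjusted p = 0.000188), while Timd4 fell by 2.36 (SE 0.34, adjusted p = 6.04e-06) and Marco fell by 2.24 (SE 0.50, adjusted p = 0.000847). Without the 2 libraries farthest from the median sum, r in HFHF control was 0.94 for Kupffer, 0.45 for general and 0.84 for monocyte-derived markers, so the relation to the general sum rests on those libraries.

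In gRNA libraries (n = 8) Atp6v0d2 followed the monocyte-derived sum with r = 0.81 (exact p = 0.0172, adjusted p = 0.0517) and rho = 0.83 (exact p = 0.0154, adjusted p = 0.0461). For the general sum r was 0.75 (exact p = 0.0363, adjusted p = 0.0726) and rho 0.76 (exact p = 0.0368, adjusted p = 0.0663). For the Kupffer sum r was 0.66 (exact p = 0.0816, adjusted p = 0.098) and rho 0.74 (exact p = 0.0458, adjusted p = 0.0663). The r values without the 2 farthest libraries were 0.91, 0.70 and 0.52. A large part of the monocyte-derived sum is Gpnmb, which averaged 72.3 CPM in gRNA libraries where the median sum was 146 CPM. Gpnmb was the marker of that list not lower with gRNA against HFHF control (0.65, SE 0.36, edgeR adjusted p = 0.172). Adjustment was over the 6 Pearson values and over the 6 Spearman values separately, and not over both kinds together. After it no Pearson value passed, and 2 of the 6 Spearman values did, which holds only for that separate adjustment.

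**Figure D4:**
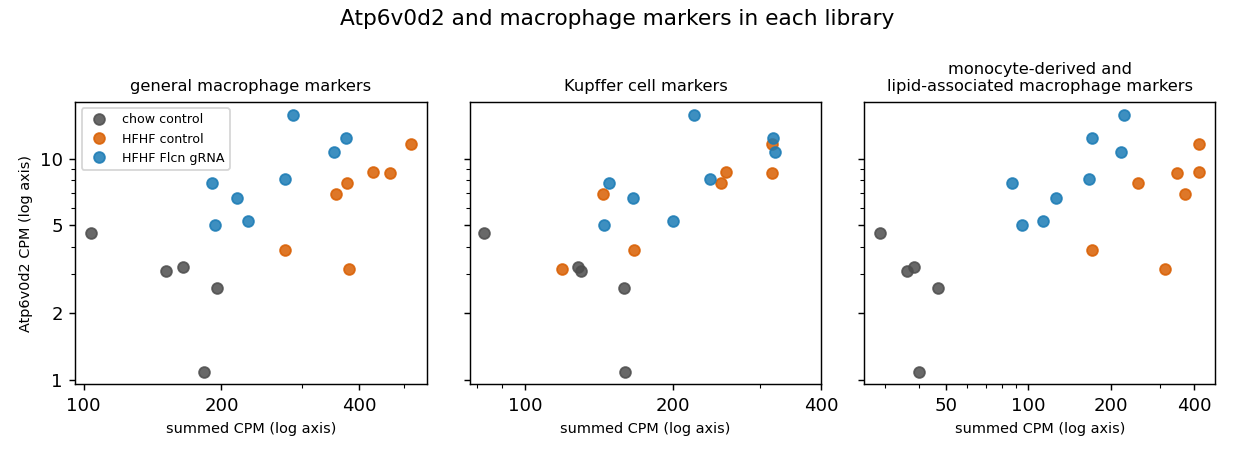
Atp6v0d2 CPM against the summed CPM of 3 macrophage marker lists, both on log axes, with 1 point per library in 20 libraries. Within HFHF control and gRNA the points rise to the right, while the chow libraries stay at or below 4.61 CPM of Atp6v0d2.

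Over all 20 libraries, the levels of the 9 genes were mostly correlated, and part of that remained within groups. The 36 pairs had a median Pearson r of 0.62 for log2 CPM, 28 of them above 0, and Atp6v0c was closest to Atp6v0b (0.96), Atp6v0d1 (0.94) and Atp6ap2 (0.94). These values include the differences between groups, and every pair shares libraries and their scaling. For deviations from the group means the median was 0.16, 22 of 36 pairs were above 0, and the range was -0.52 to 0.83. Atp6v0b, Atp6v0c, Atp6v0d1 and Atp6v0e moved together in these deviations, at 0.83 for Atp6v0c and Atp6v0d1, 0.77 for Atp6v0b and Atp6v0e, 0.71 for Atp6v0c with each of Atp6v0b and Atp6v0e, 0.67 for Atp6v0b and Atp6v0d1, and 0.58 for Atp6v0d1 and Atp6v0e. Atp6ap1 and Atp6ap2, whose windows hold no match to the motifs, went with them as well. Atp6ap1 was at 0.66 with Atp6v0d1, 0.50 with Atp6v0b, 0.48 with Atp6v0c and 0.27 with Atp6v0e. Atp6ap2 was at 0.55, 0.53, 0.48 and 0.42 with Atp6v0c, Atp6v0e, Atp6v0b and Atp6v0d1. Atp6v0a1, whose window also holds no match, was at -0.33, -0.25, -0.17 and -0.36 with Atp6v0b, Atp6v0c, Atp6v0d1 and Atp6v0e. All these r include gRNA replicate 8, the lowest of its group for Atp6v0a1 and the highest for Atp6v0b, Atp6v0c and Atp6v0e. No r was computed without that library, so the sign for Atp6v0a1 may rest on it. Any relation of the motifs to these values was not tested. Atp6v0d2 went the other way from Atp6v0d1, at -0.52, and from Atp6v0a2, at -0.48. Atp6v0a1 lay between -0.36 (with Atp6v0e) and 0.17.

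**Figure D5:**
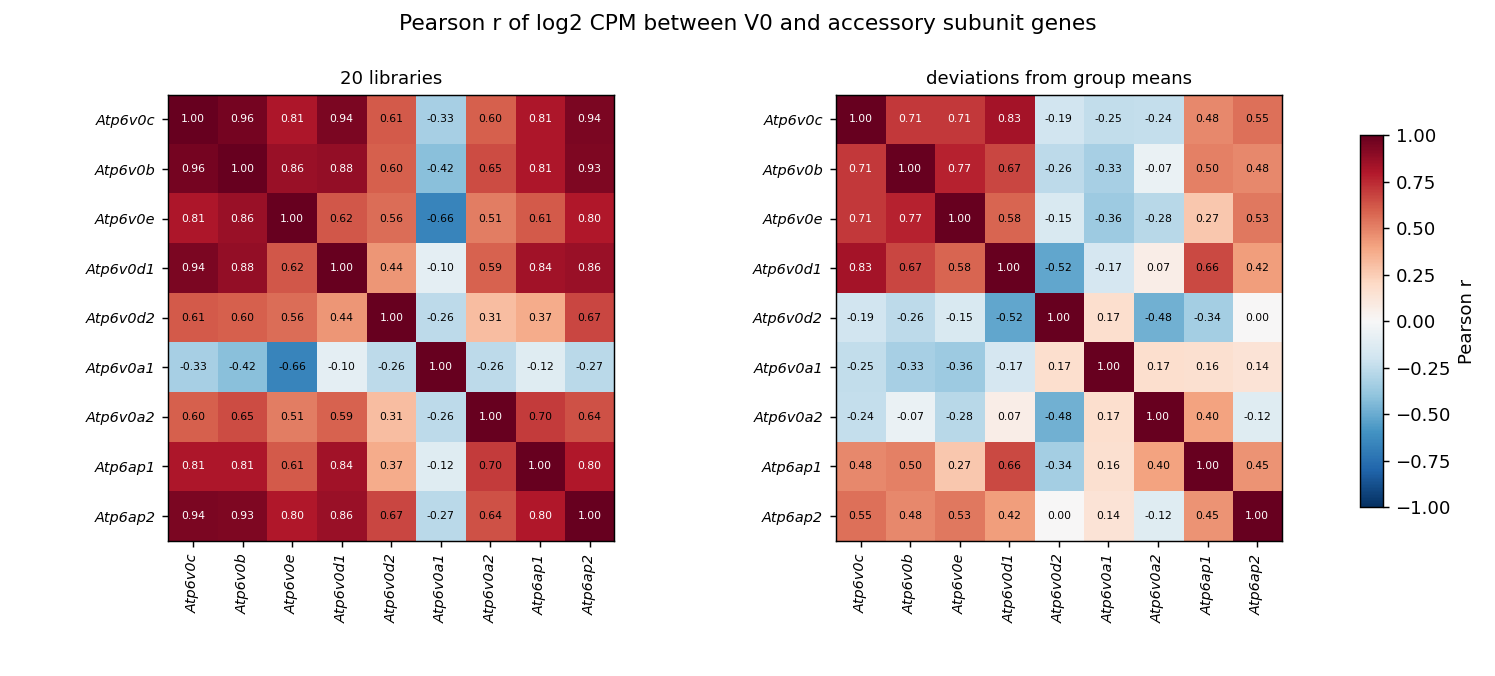
Pearson r of log2 CPM between the 9 genes over 20 libraries (left) and for deviations from group means (right), as a description with no test. On the right Atp6v0c, Atp6v0b, Atp6v0e and Atp6v0d1 keep r of 0.58 to 0.83 with each other, Atp6ap1 reaches 0.66 with Atp6v0d1, and Atp6v0d2 is at -0.52 with Atp6v0d1.

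The tested genes most like the mean standardised level of the 9 genes over the 20 libraries were Hexa (r = 0.97), Rragd (0.97), Hspb1 (0.97), Mpp6 (0.97) and Dpp7 (0.96). These r include the differences between groups. For deviations from the group means they were 0.73, 0.68, 0.66, 0.72 and 0.72, in that order. Hexa, a lysosomal hexosaminidase subunit, averaged 30.6, 61.9 and 94.6 CPM in chow, HFHF control and gRNA. Rragd, which encodes the Rag GTPase RagD, averaged 1.97, 13.5 and 51.8 CPM. Hspb1 averaged 9.11, 27.2 and 63.0 CPM, Mpp6 72.3, 97.1 and 121 CPM, and Dpp7 10.7, 17.0 and 25.4 CPM. For Atp6v0d2 alone the nearest genes were Epb41l3 (r = 0.85), Mms22l (0.84), 5033421B08Rik (0.82), Tenm4 (0.82) and Pld3 (0.82), so the lists share no gene. For deviations from the group means the r with Atp6v0d2 were 0.70, 0.68, 0.66, 0.78 and 0.63.

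The cytosolic V1 sector, which must join V0 to make a working pump, had similar counts. Of 13 V1 genes 9 were tested. On the diet 8 rose and 0 fell (median 0.35), where 28.1% of all tested genes were higher and 28.9% lower. With gRNA against HFHF control 7 rose and 0 fell (median 0.23), beside 19.6% and 19.0% of all genes. With gRNA against chow 8 rose and 0 fell (median 0.61), beside 20.9% and 21.6%. Atp6v1a, the catalytic A subunit, rose by 0.46 with gRNA against HFHF control (SE 0.07, edgeR adjusted p = 2.41e-05), and Atp6v1d, of the central stalk, by 0.44 (SE 0.07, adjusted p = 7.59e-05). Atp6v1e1 and Atp6v1g1, which form the peripheral stalk, rose by 0.31 and 0.24 in that comparison. On the diet Atp6v1e1 rose by 0.54, Atp6v1f by 0.42, Atp6v1b2 by 0.41 and Atp6v1c1 by 0.37. Without scaling beyond library size the count for gRNA against HFHF control was 2 higher.

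Assembly factors and regulators of the pump were more mixed than V0 itself, with 11 of 12 genes tested. On the diet 4 rose and 4 fell, where 28.1% of all tested genes were higher and 28.9% lower. With gRNA against HFHF control 3 rose and 0 fell, beside 19.6% and 19.0% of all genes. With gRNA against chow 5 rose and 2 fell, beside 20.9% and 21.6%. The count of 3 became 5 without HFHF control replicate 4 or without gRNA replicate 8. The 3 were Wdr7 at 0.58 (SE 0.08, edgeR adjusted p = 3.92e-06), Dmxl2 at 0.42 (SE 0.09, adjusted p = 0.000786) and Tldc1 at 0.32 (SE 0.11, adjusted p = 0.0213). The Tldc1 call was lost with upper-quartile scaling (0.26, adjusted p = 0.0593) and at library size alone (0.14, adjusted p = 0.345). Wdr7 and Dmxl2 belong to the complex that brings V1 back to V0. In the same comparison Dmxl1 was at 0.21 (SE 0.09, adjusted p = 0.0639) and Rogdi at 0.04 (SE 0.13, adjusted p = 0.812), and neither passed. On the diet Dmxl2 fell by 0.41 (SE 0.10, adjusted p = 0.00147) and its relative Dmxl1 fell by 0.58 (SE 0.10, adjusted p = 3.16e-05), while Rogdi rose by 0.62 and Ncoa7 by 1.05. Oxr1, of the same TLDc family as Ncoa7 and Tldc1, fell by 0.37 on the diet (SE 0.08, adjusted p = 0.000491), and at library size alone was at -0.09 and did not pass (adjusted p = 0.413).

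The MiT/TFE factors did not rise with the gRNA as mRNA. Against HFHF control, Tfe3 fell by 0.35 (SE 0.09, edgeR adjusted p = 0.00351) and Tfec fell by 0.51 (SE 0.19, adjusted p = 0.043). Tfeb was at -0.02 (SE 0.12, adjusted p = 0.91) and Mitf at -0.28 (SE 0.12, adjusted p = 0.0795). On the diet Tfec rose by 0.90 (SE 0.24, adjusted p = 0.00245), and the other 3 factors did not pass. Protein levels and nuclear entry of these factors were not measured here.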

How the data were processed

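RNA was made into poly(A) mRNA libraries with adapters that carry molecular identifiers and read as 51-cycle single ends, per the labels' protocols. The authors deposited expected counts per gene, on GRCm38 per the submitters' processing notes; no source used here gives the aligner, counter, annotation, strand setting or any use of the identifiers. Of the deposited values of at least 1, 78.1% were whole within 0.001. The 22 construct features (2.2e-06% of counts) and 1 column that matched no label were left out. Names came from GENCODE M21 (32325 of 32400 genes matched).

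Expected counts were rounded, filtered with filterByExpr (13667 genes) and scaled with TMM factors of 0.891 to 1.17. All 3 groups entered 1 quasi-likelihood fit in edgeR 4.0.16 (R 4.3.3), with 17 residual degrees of freedom, a common biological coefficient of variation of 0.164, and Benjamini-Hochberg adjusted p-values over all tested genes at 0.05. Ratios and single genes were also compared with exact permutation tests over all regroupings of libraries (numpy 2.4.6). Ranks for the Spearman values came from scipy 1.17.1. Levels per kilobase used the union of exons.

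The members and lists were chosen with earlier results of these data known. The text names every member and paralog, and up to 4 V1 and 4 assembly genes of smallest p per comparison. It also names the MiT/TFE factors, the macrophage markers, Flcn and the 5 genes of highest r. Dmxl2 on the diet, and Dmxl1 and Rogdi with gRNA against HFHF control, were added after their values were seen. Alternatives were other scalings, no filter, DESeq2 1.42.0, limma 3.58.1 (voom), fits of 2 groups, each library left out, and a pseudocount of 1 for ratios. Replicates are numbered in accession order and pair no samples.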

Additional observations from a re-analysis of the deposited data

Results flagged for a closer look

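In 2 of 33 groups of libraries tested, 1 library stood apart from the rest of its group by Dixon's ratio; chance marks about 1 in 20 such groups. Atp6v0a1 in gRNA replicate 8 was at 29.5 CPM, where the other gRNA libraries lay between 36.8 and 42.4 CPM, a gap of 0.57 of the whole range. Atp6ap1 in chow replicate 5 was at 63.3 CPM, where the other chow libraries lay between 49.9 and 52.0 CPM, a gap of 0.84 of the range. The same chow library was also the highest of its group for Atp6v0a2 (35.2 CPM), Atp6v0d1 (49.4 CPM) and Tcirg1 (22.8 CPM) and the lowest for Atp6v0d2 (1.09 CPM).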

How the results depend on the processing

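Without scaling beyond library size, the counts of members called for gRNA against HFHF control were 0 higher and 1 lower, and the diet count of lower genes was 0. With upper-quartile scaling 4 were higher with gRNA, and the other settings for scaling, filter, tool and groups kept that count at 5. Leaving out each library gave 5 to 5 higher with gRNA, 6 to 8 higher on the diet and 8 to 8 for gRNA against chow. Without that scaling the V1 count was 2 higher with gRNA, and the assembly genes had 1 lower in each comparison; leaving out libraries gave 3 to 5 assembly genes higher with gRNA. Atp6v0a2 turned to -0.12 and Atp6ap1 to -0.07 with gRNA without that scaling. Tcirg1 in gRNA against chow ranged from -0.10 to 0.08 leaving out each library and turned to 0.03 without it, 0.00 without gRNA replicate 3 and 0.08 without chow replicate 5.

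Leaving out each library, the ratio differences ranged from 0.11 to 0.21 for Atp6v0a1 to Atp6v0a2 (gRNA against HFHF control), from -0.16 to 0.16, 0.81 to 1.35 and 0.84 to 1.37 for Atp6v0d2 to Atp6v0d1 (gRNA against HFHF control, diet, gRNA against chow), and from -0.05 to 0.15 for Atp6v0e2 to Atp6v0e on the diet. With a pseudocount of 1, the difference for Atp6v0d2 to Atp6v0d1 (gRNA against HFHF control) was -0.01, and those for Atp6v0e2 to Atp6v0e were -0.26 (gRNA against HFHF control) and -0.27 (diet). The cause was not tested. By median transcript length (added after the data were seen) the ranks were, in chow, Atp6v0c 1, Atp6v0d1 2, Atp6v0b 3, Atp6ap1 4, Atp6v0e 5, Atp6ap2 6 and Atp6v0a1 7. In HFHF control they were Atp6v0e 2, Atp6v0b 3, Atp6v0d1 4, Atp6ap1 5, Atp6ap2 6, Atp6v0a1 7 and Atp6v0a2 8. In gRNA they were Atp6v0b 2, Atp6v0d1 3, Atp6v0e 4, Atp6ap1 5 and Atp6ap2 6.

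The unfiltered test of 22795 genes called the same members. No paired analysis was possible because the labels carry no replicate numbers. Counts of 14 to 250 per library limit Atp6v0d2. Use of the molecular identifiers is not stated.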

Other observations

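Lysosomal membrane and lumen genes that work beside the pump were mostly higher with the gRNA. Of 8 such genes, 6 rose and 0 fell against HFHF control (median 0.35), where 19.6% of all tested genes were higher and 19.0% lower. On the diet 4 rose and 1 fell (median 0.22), where 28.1% of all genes were higher and 28.9% lower. With gRNA the rises were Mcoln1 at 0.74 (SE 0.10, edgeR adjusted p = 3.56e-06), the lysosomal calcium channel, Clcn7 at 0.49 (SE 0.07, adjusted p = 1.63e-05), the chloride-proton exchanger, and its partner Ostm1 at 0.45 (SE 0.07, adjusted p = 3.95e-05). Lamp2, Ctsb and Lamp1 rose by 0.42, 0.29 and 0.25. Lamp2 fell by 0.51 on the diet (SE 0.06, adjusted p = 4.04e-07) and had the same order of group means as Atp6v0a1, at 709, 497 and 665 CPM in chow, HFHF control and gRNA.

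Genes known from osteoclasts, where Atp6v0d2 and Tcirg1 are also known, did not move as 1 group with the gRNA. Acp5 rose by 0.23 against HFHF control (SE 0.07, edgeR adjusted p = 0.0164), while Ctsk fell by 1.16 (SE 0.24, adjusted p = 0.000587) and Ocstamp fell by 1.20 (SE 0.29, adjusted p = 0.00255). Calcr was at 0 in all libraries and Dcstamp was not tested. Genes of osteoclasts are named here for their known function, and no such cell is assumed in liver.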
